A study of Homo sapiens with 5 samples.

Results

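The comparison set 1 library of SNU-398 cells carrying a SALL4 knockdown against 1 library of untreated SNU-398 cells, 2 of the 5 libraries of the study. Genes entered it when either library listed at least 1 FPKM (fragments scaled to transcript length and library size), which kept 13716 of 24544 symbols, and 13564 of these were not small nucleolar RNAs (snoRNAs). Each difference is a log2 ratio of (knockdown FPKM + 1) to (untreated FPKM + 1), a scale that understates differences of low genes. A gene was counted as higher or lower when this ratio reached 2-fold. With 1 library a side no spread between cultures could be measured, so no p-value is given and the 2-fold rule is a size and not a test.

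SNU-398 is a cell line grown from a human hepatocellular carcinoma, and the source label of the knockdown sample states that both isoforms of SALL4, SALL4A and SALL4B, were targeted. The sources used here do not give the reagent or its sequence. The source label of the control calls its cells untreated, while the treatment field of every sample lists lentiviral transduction and puromycin, so knockdown, vector and selection cannot be told apart. The other 3 libraries came from SNU-387, another liver cancer line, carrying either an empty vector or a vector for SALL4A or SALL4B. The cell line field reads SNU-387 for all 5 samples, so SNU-398 is taken from the titles. All cells were grown in RPMI medium with fetal serum, and total RNA was depleted of ribosomal RNA, which keeps transcripts without a poly(A) tail.

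SALL4 is a zinc finger transcription factor of the early embryo and fetal liver that is silent in adult liver and active again in some liver tumours. It binds A/T-rich DNA, and a short motif at its amino end recruits the nucleosome remodelling and deacetylase complex (NuRD), which removes acetyl groups from histones and represses genes. The series title links SALL4 to oxidative phosphorylation (OXPHOS), the production of ATP by the respiratory complexes I to V of the inner mitochondrial membrane.

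The 2 libraries differed in more than SALL4. Estimated depth was 23.0 M fragments in the untreated library and 7.75 M in the knockdown library, so a 2 kb transcript at 1 FPKM rested on about 42.5 and 14.3 fragments. SnoRNA symbols took 1.04% of summed FPKM in the untreated library and 37.1% in the knockdown library. Weighted by annotated transcript length, the same symbols took 0.0205% and 1.26%. For RNAs this short that weighting is not a share of fragments. At 75 bases, for example, the lowest value above 0 in the knockdown library was 4618 FPKM, as described below. Although shallower, the knockdown library listed more symbols above 0, 19669 against 18779, and 224 against 131 of 368 olfactory receptor genes, which liver cells are not known to use. At 1 FPKM the receptor counts were 16 against 15. The SNU-387 empty vector library was close to the knockdown library in the counts above 0, at 214 receptors and 19613 symbols, but had 0 receptors at 1 FPKM. The SALL4A and SALL4B libraries each had 23 receptors above 0 and 0 at 1 FPKM. Of 32 hepatocyte markers 4 reached 1 FPKM in either library, and albumin (ALB) was at 1.28 and 0.37 FPKM, untreated first, so the liver label was not matched by the defining genes of mature hepatocytes. No member of a list of 10 endothelial markers reached 1 FPKM, 1 of 12 leukocyte markers did (CD68, 4.90 and 8.65 FPKM), and 8 of 12 fibroblast and stellate markers did, with LUM at 48.3 and 48.9 FPKM and DCN at 17.5 and 4.09 FPKM.

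A group of mRNAs that mark the SNU-387 line was present in the SNU-398 knockdown library at a low level. The 22 mRNAs at 50 FPKM or more in every SNU-387 library and at 0.1 FPKM or less in untreated SNU-398 summed to 4056 FPKM (empty vector), 2857 FPKM (SALL4A) and 3426 FPKM (SALL4B) in SNU-387. In SNU-398 they summed to 0.737 FPKM untreated and 47.2 FPKM with the knockdown. All 22 were above 0 and above their untreated value in the knockdown library, at 0.479% to 3.02% of their mean SNU-387 level (median 0.912%), while 9 were listed at 0 in the untreated library. Low untreated values were a condition of the choice, so this count describes the group only. In the other direction, 15 genes were at 20 FPKM or more in both SNU-398 libraries and at 0.1 FPKM or less with empty vector. By that choice they were near 0 in the empty vector library, at 0.0866 FPKM or less. The SALL4A and SALL4B libraries were not part of this choice. Of the 22 mRNAs, 8 were counted as 2-fold higher after knockdown, among them SPARC, LDHB, KRT18 and S100A6. Results that this could touch are therefore also given after subtracting 0.912% of the SNU-387 mean from each knockdown value. The part of this signal in any result was not tested.

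**Figure D1:**
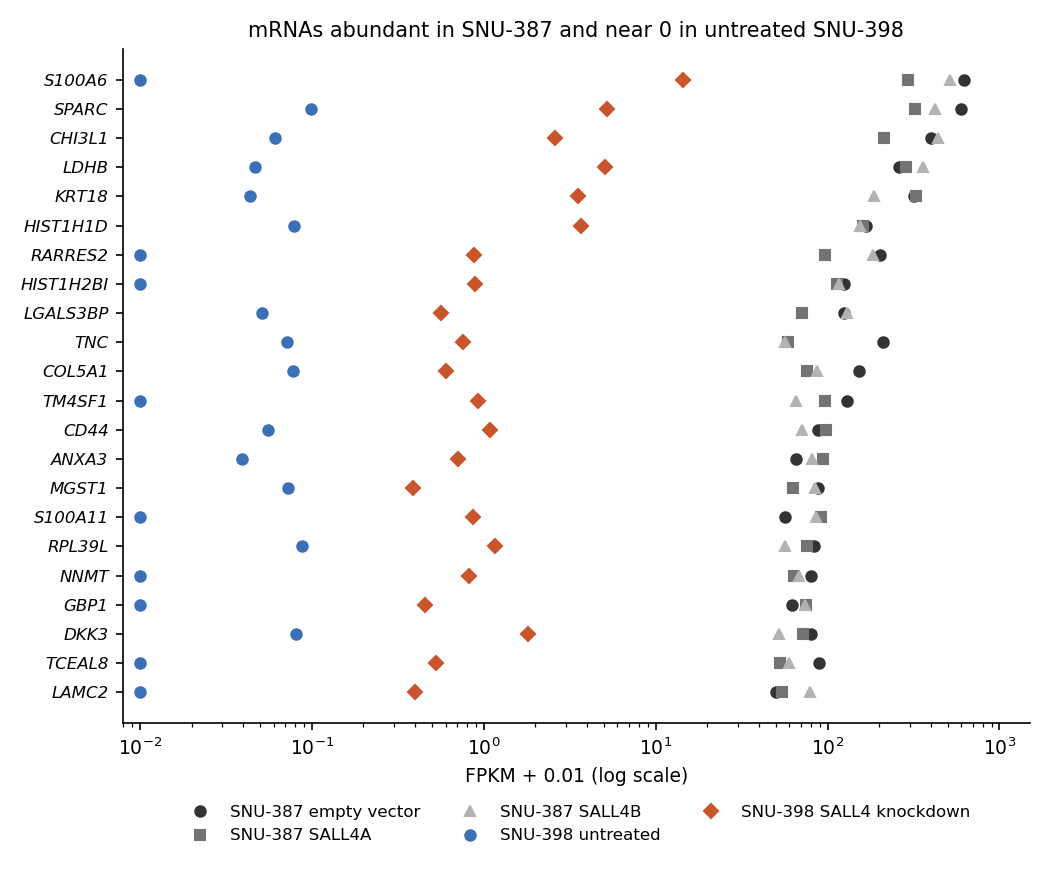
Level of 22 mRNAs that are abundant in SNU-387 cells and near 0 in untreated SNU-398 cells, as FPKM + 0.01 on a log axis, 1 row per gene and 1 point per library. The knockdown points lie between the untreated points and the SNU-387 points in every row, at 0.479% to 3.02% of the SNU-387 mean.

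Across the genes kept, 1335 (9.73%) were 2-fold or more higher after knockdown and 1115 (8.13%) 2-fold or more lower. Without snoRNA symbols the counts were 1189 (8.77%) and 1110 (8.18%) of 13564 genes. Among 11991 protein-coding genes, 844 (7.04%) were higher and 1024 (8.54%) lower. The median ratio was -0.012 over all genes kept, -0.021 without snoRNA symbols and -0.065 over protein-coding genes, and 49.4% of all genes and 48.8% of those other than snoRNAs lay above 0. Higher genes made up 54.5% of those past 2-fold. Setting the median of protein-coding genes at 10 FPKM or more to 0 shifted every ratio by 0.10 and moved this share to 66.0%, with 1645 higher and 846 lower genes. Ratios also followed base composition. In 10 bins of transcripts ordered by GC content, the 1200 genes with the lowest content had a median ratio of 0.22, with 114 higher and 34 lower. The seventh bin of 1199 had a median of -0.21, with 57 higher and 140 lower. List medians below are therefore followed by the median after centring on genes of like length and GC content. Counts of list members past 2-fold are to be read against the 9.73% and 8.13% of all genes.

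**Figure D2:**
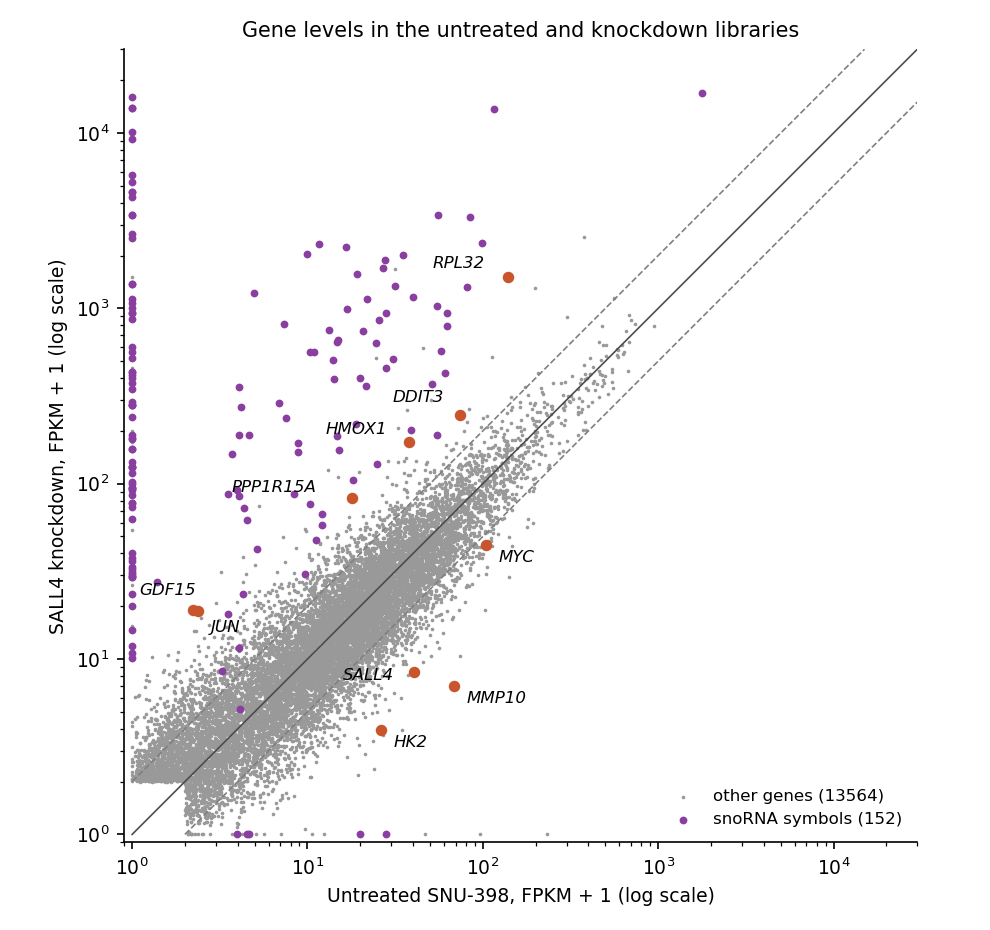
FPKM + 1 of the 13716 genes kept, untreated on the x axis and knockdown on the y axis, both log scales; the solid line marks equal values, the dashed lines 2-fold differences, purple points the 152 snoRNA symbols and orange points named genes. Most genes lie between the dashed lines, while 146 snoRNA symbols lie above the upper one, 73 of them listed at 0 in untreated cells.

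SALL4 itself (chromosome 20, 51782331 to 51802520, GRCh38, minus strand) stood at 39.4 FPKM untreated and 7.45 FPKM with the knockdown (log2 ratio -2.26), on about 4581 and 292 estimated fragments, so the targeted transcript was lower in the library labelled knockdown. Its paralog SALL2 was also lower, at 13.1 and 4.73 FPKM (log2 ratio -1.29). SALL1 was at 7.36 and 5.94 FPKM (log2 ratio -0.27) and SALL3 was under 1 FPKM in both libraries. Here and below, pairs of values give the untreated library first.

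Most subunits of NuRD, the corepressor that SALL4 recruits, had ratios below 0. Of 17 members kept, 15 were below 0, but only 2 (11.8%, against 8.13% of all genes) were at least 2-fold lower and 0 higher, and the median was -0.27 (-0.23 after length and GC centring), against -0.065 for protein-coding genes. The subunit MBD3 was at 29.4 and 11.7 FPKM (log2 ratio -1.26) and the scaffold GATAD2B at 20.96 and 8.88 FPKM (-1.15). The helicase CHD4, the core ATPase of the complex, was at 90.2 and 90.3 FPKM, the same level in both. Polycomb and DNA methylation genes had a median of -0.27 (-0.23 after centring), with 2 of 26 higher and 1 lower. PCGF5, a subunit of polycomb complex 1, was at 20.3 and 5.18 FPKM (-1.78) and the maintenance methyltransferase DNMT1 at 89.2 and 75.01 FPKM (-0.25). Among 16 kept genes that earlier work linked to SALL4, 2 were higher, 1 was lower and the median was -0.21 (-0.057 after centring). The ephrin receptor EPHA3 was at 10.8 and 45.1 FPKM (1.96), the oncogenic transcription factor MYC at 104 and 43.7 FPKM (-1.22) and cyclin D1 (CCND1) at 73.8 and 102 FPKM (0.46).

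The 15 highest ratios were taken among protein-coding genes that reached 5 FPKM in either library, have a transcript of at least 1 kb and hold no snoRNA, which leaves out RPL32, FTL and S100A6 given below. They were led by a channel subunit, a secreted stress factor and a transcription factor. SCNN1D, the delta subunit of the epithelial sodium channel, was at 12 and 118 FPKM (log2 ratio 3.19). Its SNU-387 values were 96.8 (empty vector), 150 (SALL4A) and 834 FPKM (SALL4B). The log2 ratios over the empty vector were 0.62 for SALL4A and 3.09 for SALL4B. SCNN1D was thus also higher where SALL4 was raised, past 2-fold for SALL4B only, and its link to SALL4 was not tested. GDF15, a secreted factor of stressed cells, was at 1.23 and 18.03 FPKM (log2 ratio 3.09), and JUN, a subunit of the AP-1 transcription factor, at 1.38 and 17.8 FPKM (log2 ratio 2.98). Receptors and signalling genes followed. The galanin receptor GALR2 was at 0.215 and 7.15 FPKM (2.75), the secreted ligand WNT9A at 1.27 and 13.5 FPKM (2.67), the small GTP-binding protein RND3 at 0.611 and 9.48 FPKM (2.70) and the Ras-family protein RASD1 at 0.0854 and 5.18 FPKM (2.51). SLC10A1, the bile acid transporter of hepatocytes, was at 0.819 and 10.02 FPKM (2.60). The F-box protein FBXL2 was at 3.31 and 26.7 FPKM (2.68), the axonemal dynein heavy chain DNAH7 at 1.31 and 13.4 FPKM (2.64), TMEM262 at 0.256 and 6.54 FPKM (2.59) and the lysosomal glycoprotein GPNMB at 0.185 and 5.92 FPKM (2.54). In each of these genes the knockdown library was the higher SNU-398 library. All of the 15 except SCNN1D and FBXL2 had under 1.5 FPKM in untreated cells. LDHB, a lactate dehydrogenase subunit, and SPARC, a matrix glycoprotein, belonged to the 22 SNU-387 mRNAs. LDHB was at 0.037 and 5.08 FPKM, with 259 FPKM in SNU-387 with empty vector, and its ratio of 2.55 became 1.68 after the subtraction. SPARC was at 0.0885 and 5.23 FPKM, with 599 FPKM with empty vector, and its ratio went from 2.52 to 0.98. For SCNN1D, GDF15 and JUN the ratios after subtraction were 3.15, 3.09 and 2.94.

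The 15 lowest genes held a protease, a DNA-damage effector and several cell surface and metabolic genes. MMP10, a matrix metalloproteinase, was at 67.9 and 6.02 FPKM (log2 ratio -3.30), and SLFN11, which acts on stalled replication forks, at 18.4 and 1.17 FPKM (log2 ratio -3.16). The membrane protein EMP1 was at 33.5 and 2.92 FPKM (-3.14), the AP-1 family member BATF3 at 20.4 and 1.86 FPKM (-2.90) and ANKRD1, an ankyrin repeat protein and YAP target, at 25.98 and 2.69 FPKM (-2.87). Hexokinase 2 (HK2), the first enzyme of glycolysis, was at 25.3 and 2.93 FPKM (-2.74). The heparan sulfate proteoglycan SDC1 was at 28.3 and 4.11 FPKM (-2.52), the matrix protein HMCN1 at 33.1 and 4.98 FPKM (-2.51), the phospholipase PLCB4 at 18.3 and 2.54 FPKM (-2.44) and the synaptic adhesion protein LRRTM3 at 7.39 and 0.658 FPKM (-2.34). MYBPH, a myosin binding protein, was at 8.74 and 0.078 FPKM (-3.18), the centrosomal protein LRRCC1 at 22.7 and 2.40 FPKM (-2.80), TPD52L1 at 73.1 and 9.41 FPKM (-2.83), FAM86C1 at 18.7 and 2.22 FPKM (-2.61) and DAP at 15.8 and 1.77 FPKM (-2.60). All 15 were above 7 FPKM in untreated cells. Subtraction of the SNU-387 signal can only reduce a knockdown value, so it is no check on lower genes. Their ratios then ran from -3.36 (EMP1) to -2.34 (LRRTM3). The estimated fragments behind MMP10 were 2509 and 75 and behind HK2 3268 and 128. The 5 most abundant genes that moved less than 1.1-fold were RPS18 (623 and 613 FPKM), RPL19 (588 and 578 FPKM), RPL11 (584 and 543 FPKM) and RPL7 (469 and 505 FPKM), all ribosomal proteins, and the phospholipid-binding protein ANXA1 (421 and 462 FPKM).

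**Figure D3:**
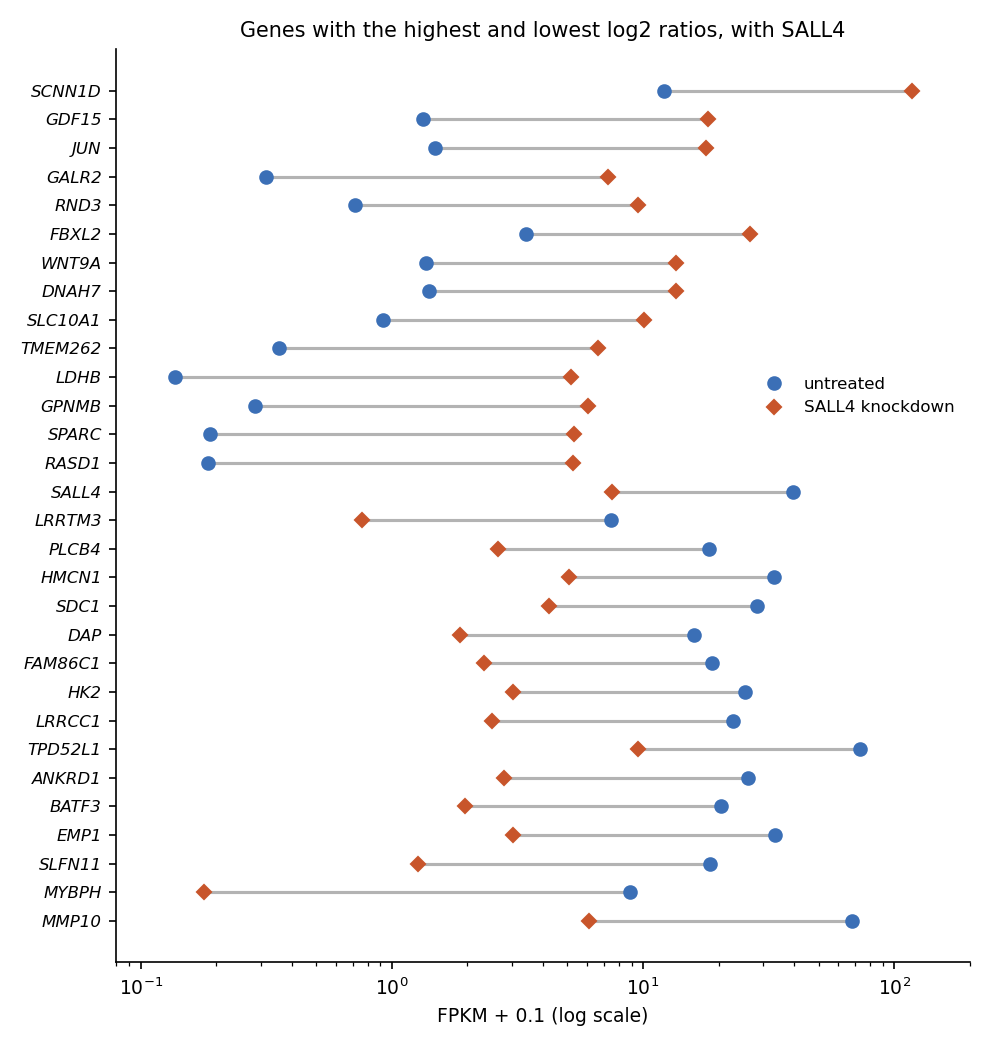
FPKM + 0.1 on a log axis in untreated cells (blue circles) and after SALL4 knockdown (orange diamonds) for 14 of the 15 highest and the 15 lowest protein-coding genes and SALL4, ordered by log2 ratio, 1 library per point. MMP10 has the lowest log2 ratio (67.9 and 6.02 FPKM), and SCNN1D has the highest ratio and the highest knockdown level of the higher genes drawn (118 FPKM).

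Genes of the integrated stress response lay above their untreated level. In this pathway, kinases that sense unfolded protein, amino acid shortage, viral RNA or heme shortage phosphorylate the initiation factor eIF2, which lowers general translation and favours translation of ATF4, and ATF4 with its target CHOP (DDIT3) then raises genes of amino acid supply, redox control and cell death. All 20 target genes kept had ratios above 0, against 49.4% of all genes, 8 (40%, against 9.73% of all genes) were at least 2-fold higher and 0 lower, and the median was 0.67 (0.76 after length and GC centring, 0.65 after the SNU-387 subtraction). DDIT3 was at 72.8 and 246 FPKM and PPP1R15A, which directs a phosphatase to eIF2 in a feedback loop, at 17.01 and 81.5 FPKM. Those are log2 ratios of 1.74 and 2.20. The amino acid transporter subunit SLC3A2 was at 39.7 and 119 FPKM (1.56), the glutathione-degrading enzyme CHAC1 at 9.66 and 27.7 FPKM (1.43), the transcription factor ATF3 at 10.7 and 28.8 FPKM (1.34), the TORC1 inhibitors SESN2 and DDIT4 at 10.6 and 27.96 FPKM (1.31) and 9.74 and 21.8 FPKM (1.09). ATF4 mRNA, whose protein is controlled mainly at translation, was at 245 and 278 FPKM (0.18). The members under 2-fold ran from CTH (0.23) and CEBPG (0.32) through TRIB3 (0.34), STC2 (0.39), VEGFA (0.45), PSAT1 (0.50), SLC7A5 (0.53), CEBPB (0.59) and VLDLR (0.61) to asparagine synthetase ASNS (86.3 and 144 FPKM, 0.73) and the cystine transporter SLC7A11 (32.6 and 56.7 FPKM, 0.78). This whole list was printed after its values were seen.

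The promoters of these genes were searched for the ATF4 response element, TGATGNAAN on either strand, to show the DNA that the pathway is known to act through. RefSeq starts (GRCh38.p14, 250 bases before to 50 after each) were found for 18 of the 20 genes, and a gene was counted when any of its starts held the letters. They were in 5 of 18 genes (27.8%), ASNS, ATF3, CEBPG, CHAC1 and SLC3A2, against 4.45% of 27305 genes. With 1 start per gene, that of the lowest coordinate, the counts were 2 of 18 (11.1%) against 3.75%. The 250 bases before the start are shown 5′ to 3′ for the 4 genes whose match lies there, with the match in capitals; the SLC3A2 match began 37 bases after the start.
ASNS, chr7:97872409-97872658, minus strand: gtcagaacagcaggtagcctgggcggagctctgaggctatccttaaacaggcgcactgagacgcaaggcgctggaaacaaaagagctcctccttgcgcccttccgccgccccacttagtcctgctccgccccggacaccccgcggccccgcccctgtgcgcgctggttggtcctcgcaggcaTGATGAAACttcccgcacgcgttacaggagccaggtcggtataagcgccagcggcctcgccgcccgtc
ATF3, chr1:212565157-212565406, plus strand: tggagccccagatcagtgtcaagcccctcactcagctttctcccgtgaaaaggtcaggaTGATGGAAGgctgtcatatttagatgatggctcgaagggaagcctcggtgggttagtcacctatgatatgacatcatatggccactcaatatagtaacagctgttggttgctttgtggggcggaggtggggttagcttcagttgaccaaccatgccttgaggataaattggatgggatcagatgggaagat
CEBPG, chr19:33373863-33374112, plus strand: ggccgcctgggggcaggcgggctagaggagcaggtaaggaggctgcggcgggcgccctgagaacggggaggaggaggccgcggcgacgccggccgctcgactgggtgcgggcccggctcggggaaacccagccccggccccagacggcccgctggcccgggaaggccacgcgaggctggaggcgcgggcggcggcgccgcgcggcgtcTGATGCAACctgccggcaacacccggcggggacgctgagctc
CHAC1, chr15:40953221-40953470, plus strand: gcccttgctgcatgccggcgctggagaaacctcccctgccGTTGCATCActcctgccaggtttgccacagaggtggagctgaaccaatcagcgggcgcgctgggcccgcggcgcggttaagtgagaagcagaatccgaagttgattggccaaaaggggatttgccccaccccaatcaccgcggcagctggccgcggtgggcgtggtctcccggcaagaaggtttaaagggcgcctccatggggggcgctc
Counted from the start, the matches begin at -68 (ASNS), -191 (ATF3), -42 (CEBPG) and -210 (CHAC1), and that of CHAC1 is on the opposite strand. Of these 4 genes, ATF3 and CHAC1 were past 2-fold and ASNS and CEBPG were not. The other 6 motifs searched in the same windows gave shares on both sides of those of all genes. TGATGCAAT, one form of the element, was in 0 of the 18 promoters and 0.293% of all genes. The other shares in the stress genes were 5.56% for the cyclic AMP response element TGACGTCA (2.25% of all genes), 11.1% for the AP-1 element TGANTCA (9.37%), 38.9% for the antioxidant response core TGACNNNGC (16.1%), 5.56% for the lysosomal E-box CACGTGAC (2.93%) and 11.1% for ATATT, an A/T-rich word bound by SALL4 (26.8%). A match is a description of the letters and does not show binding.

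Immediate early genes, which cells switch on within minutes of growth factor or stress signals, mostly had ratios above 0, AP-1 subunits among them. Of 22 kept, 18 were above 0, 9 (40.9%) at least 2-fold higher and 2 lower, with a median of 0.88 (1.004 after centring). Beside JUN, the AP-1 subunit FOS was at 7.58 and 41.95 FPKM (log2 ratio 2.32), FOSB at 1.98 and 9.17 FPKM (1.77) and JUNB at 16.6 and 35.03 FPKM (1.04). The small Maf protein MAFF was at 3.33 and 11.7 FPKM (1.56), KLF10 at 22.7 and 67.7 FPKM (1.53) and EGR1, the most abundant member after knockdown, at 52.8 and 80.2 FPKM (0.59). The 2 lower members were MYC, the most abundant in untreated cells, and BATF3. The phosphatase DUSP1, which switches off MAP kinases, was at 3.36 and 14.4 FPKM (1.82), although the ERK feedback genes as a list had a median of 0.056 (0.14 after centring) with 3 of 16 higher and 1 lower. FOS, FOSB, JUNB, MAFF and KLF10 were named after their values were seen.

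Targets of p53, the tumour suppressor activated by DNA damage, had a median closer to 0. Of 26 kept, 9 (34.6%) were at least 2-fold higher, 1 was lower and the median was 0.27 (0.37 after centring). Several of the higher genes are also targets of ATF4 or CHOP, such as GDF15, SESN2, the death receptor TNFRSF10B at 11.8 and 34.03 FPKM (1.46) and the BH3-only protein PMAIP1 at 9.39 and 24.2 FPKM (1.27). BAX, a pore-forming protein of the mitochondrial outer membrane, was at 0.15 and 2.61 FPKM (1.65). The abundant targets MDM2, the ubiquitin ligase of p53, and CCNG1 were at 38.5 and 46.2 FPKM (0.25) and 51.4 and 57.9 FPKM (0.17), and the cell cycle inhibitor CDKN1A at 3.15 and 3.79 FPKM (0.21). PLK2 was at 8.50 and 2.36 FPKM (-1.50). In the BCL2 and caspase list, 3 of 25 were higher and 0 lower, with the survival factor MCL1 at 42.4 and 90.3 FPKM (1.07), BCL2L1 at 22.5 and 12.9 FPKM (-0.76) and the inhibitor of apoptosis BIRC5 at 63.7 and 45.01 FPKM (-0.49). TNFRSF10B, CDKN1A, PLK2 and BCL2L1 were named after their values were seen.

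Chaperone genes of the endoplasmic reticulum did not share the direction of the stress targets, with a median of -0.092 (0 after centring), 1 of 22 higher and 1 lower. HSP90B1 was at 232 and 282 FPKM (0.28) and CALR at 233 and 199 FPKM (-0.23), while EIF2AK3, the eIF2 kinase PERK, was at 9.76 and 23.4 FPKM (1.18). Aminoacyl-tRNA synthetases, which charge tRNAs and include ATF4 targets, had a median of 0.40 (0.47 after centring) with 13 of 20 above 0, 1 higher and 0 lower. CARS was at 31.3 and 77.6 FPKM (1.28), SARS at 162 and 291 FPKM (0.84) and AARS at 177 and 245 FPKM (0.47), while KARS was at 197 and 107 FPKM (-0.87). Amino acid transporters had 3 of 21 higher and 0 lower (median 0.20, 0.29 after centring), led by the glutamine transporter SLC38A2 at 30.98 and 97.3 FPKM (log2 ratio 1.62).

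Oxidative stress and iron genes gave large ratios in a few members only. Heme oxygenase HMOX1, which frees iron from heme, was at 37.1 and 171 FPKM (log2 ratio 2.18). The list of NRF2 and glutathione targets had a median of -0.091 (0.28 after centring), whose sign turned with centring, and of -0.24 after the SNU-387 subtraction, with 2 of 23 higher and 0 lower. NQO1, the other higher member, was at 3.03 and 9.11 FPKM (1.33) and is abundant in SNU-387, at 255 FPKM with empty vector. Its ratio was 0.93 after subtraction of the median percent and -1.01 after subtraction of the highest, 3.02%. FTL, the light chain of ferritin, was at 2.20 and 30.3 FPKM (3.29), with 534 FPKM in SNU-387 with empty vector. Its ratio was 3.06 after subtraction of the median percent and 2.34 after the highest. The heavy chain FTH1 was at 248 and 224 FPKM (-0.14) and the iron exporter SLC40A1 at 7.07 and 1.57 FPKM (-1.65). Lysosome and autophagy genes had 5 of 42 higher (11.9%, near the 9.73% of all genes), 0 lower and 30 above 0, with a median of 0.33 (0.41 after centring, 0.28 after subtraction). The protease cathepsin L (CTSL) was at 31.8 and 132 FPKM (log2 ratio 2.02), alpha-galactosidase GLA at 5.46 and 19.3 FPKM (1.65), and the saposin precursor PSAP at 84.3 and 159.6 FPKM (0.91). The autophagy receptor SQSTM1, named after its value was seen, was at 41.3 and 87.4 FPKM (1.06). Proteasome subunits had 0 of 33 past 2-fold in either direction and a median of 0.27 (0.24 after centring).

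Interferon response genes, which cells use against viruses, mostly had ratios above 0. Of 19 kept from a list of 40, 15 were above 0, 5 (26.3%, against 9.73% of all genes) at least 2-fold higher and 1 lower, with a median of 0.67 (0.68 after centring, 0.60 after subtraction). The RNA sensor RIG-I (DDX58) was at 4.29 and 13.3 FPKM (log2 ratio 1.44) and IRF9, the DNA-binding subunit of the complex that carries the type I interferon signal, at 9.81 and 28.04 FPKM (log2 ratio 1.43). The RNA sensor MDA5 (IFIH1), the most abundant member in both libraries, was at 87.5 and 64.4 FPKM (-0.44). In the antigen presentation list, 3 of 14 were higher and 1 lower. Beta-2-microglobulin B2M was at 66.97 and 157 FPKM (1.21) and the immunoproteasome subunit PSMB10 at 10.7 and 3.004 FPKM (-1.55).

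Most genes of DNA replication and entry into S phase had ratios below 0, few of them past 2-fold. Of 50 kept, 13 were above 0 and 37 below, 0 were at least 2-fold higher and 5 (10%, near the 8.13% of all genes) lower, with a median of -0.47 (-0.31 after length and GC centring). Cyclin D2 (CCND2) was at 178 and 55.6 FPKM (log2 ratio -1.66) and CDK2, a kinase that drives S phase entry, at 42.5 and 14.3 FPKM (log2 ratio -1.51). The helicase subunit MCM7 was at 115 and 104 FPKM (-0.14). Genes of mitosis and the spindle had a median of -0.26 (-0.23 after centring), with 0 of 50 higher and 1 lower, the anaphase activator CDC20 at 68.3 and 31.4 FPKM (-1.10). The proliferation marker MKI67 was at 235 and 122 FPKM (-0.94) and the spindle factor TPX2 at 121 and 90.3 FPKM (-0.42). In bulk RNA, fewer dividing cells and less of these mRNAs per dividing cell cannot be told apart. Replication-dependent histone genes, whose mRNAs lack a poly(A) tail and are made in S phase, did not share this direction. They had 9 of 59 higher, 0 lower and a median of 0.26 (0.44 after centring), with the most abundant, HIST1H1C and HIST1H1E, at 346 and 345 FPKM (-0.004) and 397 and 278 FPKM (-0.51).

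Enzymes that make nucleotides and one-carbon units had a median of -0.38 (-0.29 after centring), with 0 of 27 higher and 6 lower. Thymidylate synthase TYMS, which makes dTMP, was at 46.2 and 15.4 FPKM (log2 ratio -1.52). The serine synthesis enzyme PHGDH, which starts the supply of one-carbon units, was at 132 and 175 FPKM (0.41). Ribosome biogenesis factors had 0 of 35 higher, 4 lower and a median of -0.34 (-0.18 after centring), with the endonuclease NOB1 at 80.2 and 25.4 FPKM (-1.62), RRP1B at 39.9 and 14.8 FPKM (-1.37) and the abundant nucleolar proteins NPM1 and NCL at 633 and 565 FPKM (-0.16) and 488 and 374 FPKM (-0.38). Cytosolic ribosomal proteins had 2 of 80 higher, 2 lower and a median of -0.19, which was 0.011 after centring. Their one large ratio was RPL32 (chromosome 3, 12834485 to 12841588, GRCh38), whose introns hold snoRNA genes, at 138 and 1517 FPKM (log2 ratio 3.45).

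**Figure D4:**
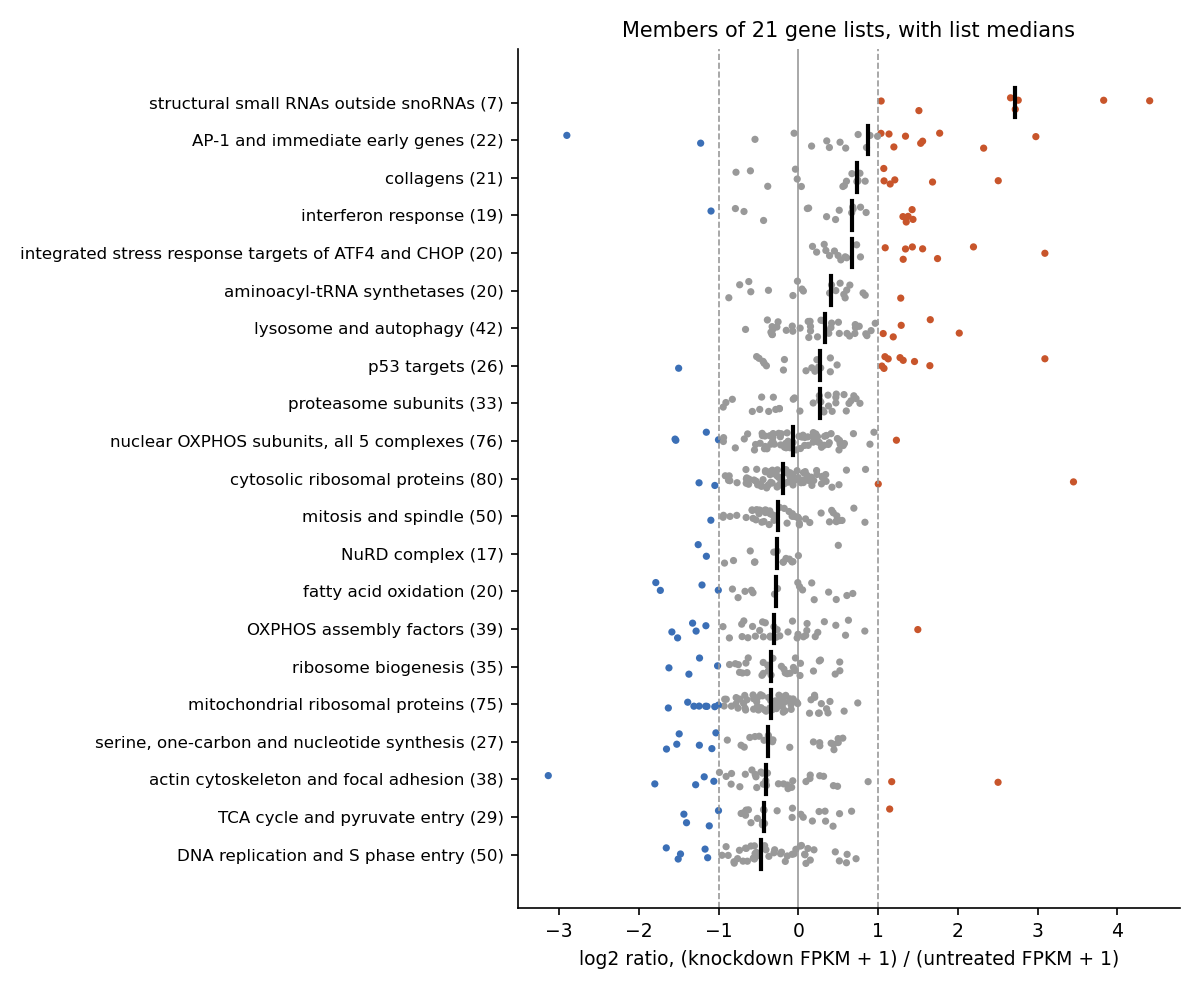
Log2 ratio of every kept member of 21 gene lists (points; orange at least 2-fold higher, blue at least 2-fold lower, grey neither) with the list median as a black bar and the number of members in brackets. Stress lists lie to the right, with medians of 0.67 for integrated stress response targets and 0.88 for immediate early genes, and replication (-0.47) and tricarboxylic acid cycle genes (-0.43) lie to the left.

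Nuclear OXPHOS subunits as a whole lay near the centre of all genes. Of 76 kept, 36 were above 0 and 40 below, 1 was at least 2-fold higher and 4 were lower, shares below the 9.73% and 8.13% of all genes, and the median was -0.072. The sign of that median was not stable, since it was 0.03 with the median of abundant protein-coding genes set to 0 and 0.087 after length and GC centring. By complex, the 37 members of complex I had a median of -0.14 (0.028 after centring), the 4 of complex II -0.14 (-0.094 after centring) and the 9 of complex III -0.027 (0.14 after centring). The 11 of complex IV had a median of 0.12 (0.16 after centring) and the 15 of ATP synthase -0.067 (0.044 after centring), so the sign of the medians of complexes I, III and V turned with centring. The lower members were a ring subunit of ATP synthase, ATP5G1, at 37.8 and 12.3 FPKM (log2 ratio -1.55), its central stalk subunit ATP5D at 65.6 and 21.97 FPKM (log2 ratio -1.54), and the complex I subunits NDUFA7 and NDUFS8 at 16.2 and 6.75 FPKM (-1.15) and 36.7 and 17.8 FPKM (-1.001). The higher one was COX6C of complex IV, at 42.3 and 100.5 FPKM (log2 ratio 1.23). The most abundant subunits, UQCRH of complex III and NDUFS5 of complex I, were at 292 and 379 FPKM (0.38) and 249.7 and 373 FPKM (0.58).

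Other mitochondrial lists had lower medians, except genes of mitochondrial DNA. Mitochondrial ribosomal proteins, which translate the subunits encoded in mitochondrial DNA, had 12 of 75 above 0, 0 higher and 8 lower (10.7%, near the 8.13% of all genes), with a median of -0.35 (-0.23 after centring). MRPL11 was at 50.4 and 15.6 FPKM (log2 ratio -1.63), MRPS26 at 63.7 and 23.7 FPKM (-1.39) and the abundant MRPL51 at 163 and 131 FPKM (-0.32). OXPHOS assembly factors had 12 of 39 above 0, 1 higher and 5 lower, with a median of -0.31 (-0.24 after centring). LYRM7, an assembly factor of complex III, was at 13.9 and 3.97 FPKM (-1.59), the ATP synthase factor ATPAF1 at 29.5 and 9.69 FPKM (-1.51), and LRPPRC, which stabilises mitochondrial mRNAs, at 87.9 and 133 FPKM (0.59). Protein import genes had 0 of 26 higher and 3 lower (median -0.22, -0.085 after centring), with the outer membrane channel TOMM40 at 86.2 and 37.2 FPKM (-1.19) and the chaperone HSPA9 at 179 and 320.2 FPKM (0.83). Genes that keep and transcribe mitochondrial DNA were near 0 as a list (median 0.11, 0.13 after centring), with the kinase DGUOK at 40.1 and 15.9 FPKM (-1.28) and the polymerase subunit POLG2 at 18.3 and 45.5 FPKM (1.26).

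The tricarboxylic acid cycle and fatty acid oxidation feed the respiratory chain, and both lists were below the centre. Of 29 cycle and pyruvate genes, 10 were above 0, 1 was higher and 4 were lower, with a median of -0.43 (-0.20 after centring). The succinyl-CoA ligase subunit SUCLG1 was at 56.4 and 20.2 FPKM (log2 ratio -1.44) and the mitochondrial isocitrate dehydrogenase IDH2 at 36.3 and 13.1 FPKM (log2 ratio -1.40), while the cytosolic enzyme IDH1 was at 65.9 and 105 FPKM (0.67). Of 20 fatty acid oxidation genes, 0 were higher and 4 lower, with a median of -0.28 (-0.15 after centring). ETFB, which passes electrons from acyl-CoA dehydrogenases, was at 50.1 and 13.8 FPKM (log2 ratio -1.79), its partner ETFA at 71.5 and 74.2 FPKM (0.053), HADH at 25.5 and 6.98 FPKM (-1.73) and the abundant HADHA at 87.3 and 51.3 FPKM (-0.76).

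Glycolysis genes had 3 of 22 higher and 1 lower, with a median of 0.19 (0.20 after centring, 0.16 after the SNU-387 subtraction). The highest was LDHB, whose ratio of 2.55 became 1.68 after subtraction of the median percent and -0.052 after the highest. Beside HK2, the abundant enzymes GAPDH and PKM were at 312 and 290.2 FPKM (-0.10) and 219 and 324 FPKM (0.56). Lipid synthesis genes had 1 of 20 higher, DGAT1, the last enzyme of triglyceride synthesis, at 2.42 and 14.1 FPKM (2.14), and 4 lower, among them the elongase ELOVL6 at 19.5 and 5.34 FPKM (-1.69), while the desaturase SCD was at 197 and 175 FPKM (-0.17). Cholesterol synthesis genes had a median of -0.069 (0.038 after centring), with the cholesterol carrier STARD4 at 36.2 and 111 FPKM (1.60).

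Collagen genes had the highest median among the matrix lists. Of 21 kept from 44, 16 were above 0, 6 were at least 2-fold higher and 0 lower, with a median of 0.73 (0.71 after centring) that was 0.53 after the SNU-387 subtraction. The fibril-associated collagen COL12A1 was at 1.74 and 14.6 FPKM (log2 ratio 2.51) and the minor fibrillar collagen COL11A1 at 82.5 and 267 FPKM (log2 ratio 1.68), and their ratios after subtraction were 2.47 and 1.68. COL3A1, the other abundant collagen, was at 127 and 131 FPKM (0.038). Matrix proteases and inhibitors were split, with 3 of 23 higher and 5 lower. The membrane proteases ADAM9 and ADAM10 were at 46.97 and 132 FPKM (1.48) and 33.4 and 43.98 FPKM (0.39), while MMP10 was lower. Integrin and laminin subunits had 3 of 21 higher and 1 lower, with ITGB1 at 134 and 175 FPKM (0.38), ITGAV at 98.1 and 141 FPKM (0.51) and LAMC3 at 8.96 and 3.59 FPKM (-1.12).

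Genes of the actin cytoskeleton and focal adhesions had 10 of 38 above 0, 2 higher and 5 lower, with a median of -0.41 (-0.29 after centring). EMP1 was the lowest, and the formin DIAPH1 and tropomyosin TPM1, named after their values were seen, were at 57.4 and 15.8 FPKM (-1.80) and 70.5 and 28.3 FPKM (-1.29). The actin-binding peptide gene TMSB4X was at 8.72 and 54.1 FPKM (2.50), with 1337 FPKM in SNU-387 with empty vector. Its ratio was 2.18 after subtraction of the median percent and 0.93, under 2-fold, after the highest. YAP and TEAD targets, which respond to cell shape and contact, had 2 of 29 higher and 5 lower, with ANKRD1 and the angiomotin AMOTL1 lowest, AMOTL1 at 13.2 and 2.50 FPKM (-2.02), and YAP1 itself at 48.8 and 27.7 FPKM (-0.79).

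Ligands, receptors and targets of developmental pathways differed singly. In the TGF-beta and BMP list 3 of 37 were higher and 4 lower, with the ligand BMP4 at 23.9 and 3.998 FPKM (log2 ratio -2.32) and the target ID2 at 64.8 and 97.4 FPKM (0.58). In the WNT list 4 of 32 were higher and 5 lower. The ligand WNT9A and the receptor FZD6 had the highest ratios, FZD6 at 5.14 and 22.9 FPKM (1.96), and the feedback target AXIN2, high in both libraries, was at 114 and 136 FPKM (0.25). In the Notch list the target HES1 was at 15.7 and 52.6 FPKM (1.69) and HEY2 at 25.7 and 8.56 FPKM (-1.48). The EGF receptor EGFR was at 5.62 and 0.994 FPKM (-1.73), its ligand EREG at 0.0583 and 2.72 FPKM (1.81) and its feedback inhibitor ERRFI1 at 62.9 and 126 FPKM (0.99).

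Genes of cell identity gave no single direction. Hepatocyte transcription factors had 0 of 16 higher and 3 lower, with ONECUT2 at 4.37 and 0.633 FPKM (-1.72), HHEX at 12.4 and 5.13 FPKM (-1.13) and the nuclear receptor NR2F1 at 33.2 and 32.2 FPKM (-0.042). Of 32 hepatocyte markers the highest was TDO2, which degrades tryptophan, at 6.41 and 8.81 FPKM (0.40), and the fetal marker AFP was at 0.023 and 0.0684 FPKM. Oncofetal and imprinted genes had 1 of 12 higher and 2 lower, with PEG10 at 45.5 and 10.8 FPKM (log2 ratio -1.98), the chromatin protein HMGA2 at 87.3 and 34.9 FPKM (log2 ratio -1.30) and LIN28B, an RNA-binding protein of fetal cells named after its value was seen, at 17.3 and 37.5 FPKM (1.07). Among epithelial genes 2 of 15 were higher and 3 lower. The surface antigen EPCAM was at 33.7 and 14.7 FPKM (-1.14) and the junction protein TJP1 at 60.8 and 48.2 FPKM (-0.33). The higher ones were the keratins KRT18 and KRT8 at 0.034 and 3.53 FPKM (2.13) and 0.579 and 4.78 FPKM (1.87), whose ratios after subtraction were 0.95 and 0.998. S100A6, a calcium-binding protein, was listed at 0 in the untreated library and reached 14.4 FPKM with the knockdown. That is 3.02% of its SNU-387 mean, the highest percent of the 22 mRNAs. Mesenchymal markers had 3 of 20 higher and 2 lower, with a median of 0.21 (0.17 after subtraction) and VIM at 484 and 615 FPKM (0.35). Among the higher ones were SPARC and TGFBI, whose ratios of 2.52 and 1.79 became 0.98 and 0.40 after subtraction.

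SnoRNAs gave the largest ratios. These short RNAs, mostly cut from introns of ribosomal protein and other host genes, guide methylation (box C/D) or pseudouridylation (box H/ACA) of ribosomal and spliceosomal RNA. Of 358 snoRNA symbols 152 were kept, and 146 of these were at least 2-fold higher and 5 lower. With 1 FPKM added, any symbol at 0 untreated and at 1 FPKM after knockdown is 2-fold higher by rule. That held for 73 of the 146, which were kept through the knockdown library alone, so their count is not a result. Box C/D members had 59 of 61 higher (40 set by the rule), H/ACA members 69 of 72 (31) and Cajal body RNAs 18 of 19 (2). SNORD76 was at 1772 and 16889 FPKM, the H/ACA RNA SNORA49 at 83.5 and 3296 FPKM and the Cajal body RNA SCARNA2 at 56.8 and 568 FPKM. In SNU-387, with empty vector, SALL4A and SALL4B in that order, SNORD76 was at 6193, 3911 and 9748 FPKM. SNORA49 was there at 852, 957 and 1472 FPKM and SCARNA2 at 133, 192 and 206 FPKM. Each of these was lowest in untreated SNU-398, whereas SNORD47 was listed at 0 there, with empty vector and with SALL4B. Host genes of snoRNAs did not share the direction of higher values after knockdown. Of 49 hosts kept 3 were higher and 0 lower, and their median was -0.21 (-0.072 after centring). Other short structural RNAs did, with 7 of 7 kept at least 2-fold higher. The ribonuclease MRP RNA RMRP was at 375 and 2539 FPKM (log2 ratio 2.76), the ribonuclease P RNA RPPH1 at 558 and 1148 FPKM (log2 ratio 1.04), and the minor spliceosome RNAs RNU12 and RNU6ATAC at 23.5 and 517 FPKM (4.40) and 4.28 and 73.9 FPKM (3.83). In the same SNU-387 order RMRP was at 1214, 1313 and 1650 FPKM and RPPH1 at 704, 717 and 576 FPKM, above untreated SNU-398. RNU12 was at 284, 291 and 13.5 FPKM and RNU6ATAC at 89.2, 102 and 0 FPKM, with SALL4B below it.

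The FPKM of some short snoRNAs came in coarse steps. Of the 152 kept, 73 were at 0 in the untreated library and at 1 FPKM or more after knockdown, and 4 box C/D members of 75 bases show the steps. SNORD24 and SNORD110 were both at 4618 FPKM, and SNORD26 and SNORD28 both at 13855 FPKM, 3 times as much. All 4 were listed at 0 in untreated cells. The sequences are given 5′ to 3′ as DNA letters from GENCODE 29 transcripts (GRCh38), so that the common length and layout can be seen. Capitals mark box D (CTGA) near the 3′ end and, near the 5′ end, the box C core TGATG or, where that is not found, ATGAT.
SNORD24, chr9:133349396-133349470, plus strand: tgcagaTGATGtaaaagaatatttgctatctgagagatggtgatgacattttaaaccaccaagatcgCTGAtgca
SNORD110, chr20:2654212-2654286, plus strand: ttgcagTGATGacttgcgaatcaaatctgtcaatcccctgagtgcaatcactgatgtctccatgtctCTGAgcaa
SNORD26, chr11:62855292-62855366, minus strand: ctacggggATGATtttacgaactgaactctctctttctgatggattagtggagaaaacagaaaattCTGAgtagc
SNORD28, chr11:62854621-62854695, minus strand: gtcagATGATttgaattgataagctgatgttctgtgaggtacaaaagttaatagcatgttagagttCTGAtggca
Among the 92-base snoRNAs, 11 of 11 values in the knockdown library were whole multiples of the lowest, within 0.1%. Over the 12 lengths with at least 4 snoRNAs above 0, 32 of 75 values were such multiples, of which 15 were the lowest or tied with it. The size of a snoRNA ratio is therefore not read as an amount of RNA.

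Noncoding classes were higher more often than mRNAs. Of 282 antisense RNAs kept, 73 were higher and 11 lower (median 0.52). Of 183 long intergenic RNAs, 43 were higher and 14 lower, and of 57 processed pseudogenes 15 were higher and 2 lower. The sources used here do not say whether strand was used in counting, so antisense genes and their partners cannot be told apart. Among 445 zinc finger genes with ZNF symbols, mostly repressors of the KRAB class, 304 were above 0, 66 higher and 18 lower, with a median of 0.34 (0.29 after length and GC centring). The most abundant, ZNF638 and ZNF146, were at 73.5 and 97.6 FPKM (0.40) and 81.7 and 63.9 FPKM (-0.35), and the ratio farthest from 0 was that of ZNF511, at 55.5 and 10.5 FPKM (-2.30). Olfactory receptor genes also had a higher median in the knockdown library, 0.156 FPKM against 0, while 16 against 15 reached 1 FPKM. For a 2 kb transcript 1 fragment is 0.0697 FPKM in the knockdown library and 0.0235 FPKM in the untreated one, so this median rests on few fragments. What these receptor values share with the noncoding and ZNF values was not tested.

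The SNU-387 libraries allow the same genes to be read where SALL4 was raised instead, and the SNU-398 pair shares no library with them. A set of 9097 protein-coding genes reached 5 FPKM in either SNU-398 library and had a transcript of at least 1 kb and no snoRNA inside. After knockdown 549 (6.03%) were higher and 842 (9.26%) lower, and with both isoforms 29 (0.319%) were higher and 43 (0.473%) lower than with empty vector. Of the 43 genes lower with both isoforms, 13 were higher after knockdown and 4 were lower. Of the 29 higher with both, 3 were lower after knockdown and 2 were higher. SALL4 itself is among these 3, and its direction was set by the design. Both isoform ratios share the empty vector library, so they are not independent of each other.

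EPHA3, an ephrin receptor that guides cell migration, was at 10.8 and 45.1 FPKM in SNU-398. In SNU-387 it was at 7.34 FPKM for the empty vector, 0.0313 FPKM for SALL4A and listed at 0 for SALL4B, the order used for the genes that follow. Its log2 ratios were 1.96, -3.02 and -3.06, so the level was lowest in the libraries with SALL4 vectors. SLITRK6, a neuronal membrane protein, was at 1.82 and 8.32 FPKM in SNU-398, and at 6.35, 0.108 and 0 FPKM in SNU-387. ITGBL1, a secreted integrin-like protein, was at 2.94 and 9.37 FPKM in SNU-398 and at 30.8, 4.51 and 1.40 FPKM in SNU-387. COL12A1 was at 1.74 and 14.6 FPKM and at 69.7, 32.4 and 31.9 FPKM. GPNMB was at 0.185 and 5.92 FPKM and at 5.16, 0.812 and 0.691 FPKM, and the adhesion receptor LPHN2 at 17.8 and 45.2 FPKM and at 20.6, 8.59 and 9.01 FPKM. FAP, a surface protease of activated fibroblasts, also met these conditions, at 25.6 and 61.2 FPKM and at 39.3, 4.09 and 1.56 FPKM. TGFBI, a matrix protein at 785 FPKM with empty vector, was at 0.933 and 5.70 FPKM in SNU-398, and its ratio of 1.79 became 0.40 after subtraction of the median SNU-387 percent and -0.95 after the highest. The other genes named so far were past 2-fold after both subtractions. Another 4 of the 13, SHISA9, MTRNR2L8, TMEM212 and TTC34, had ratios of 1.13, 1.01, 1.01 and 1.005. MTRNR2L8 and TTC34 were under 2-fold after subtraction, at 0.995 and 0.88 with the median percent and 0.95 and 0.53 with the highest, as was TGFBI, so 3 of the 13 are lost.

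In the opposite direction stood SALL4 itself, ANKRD1 and CCDC3. ANKRD1 was at 25.98 and 2.69 FPKM in SNU-398 and at 0.935, 43.4 and 20.4 FPKM with empty vector, SALL4A and SALL4B, log2 ratios of -2.87, 4.52 and 3.47. CCDC3, a secreted protein, was at 10.1 and 1.88 FPKM in SNU-398 and at 2.50, 14.2 and 9.95 FPKM in SNU-387. In all 3 pairs the library with more SALL4 had more of both, which was the condition by which ANKRD1 and CCDC3 were chosen.

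**Figure D5:**
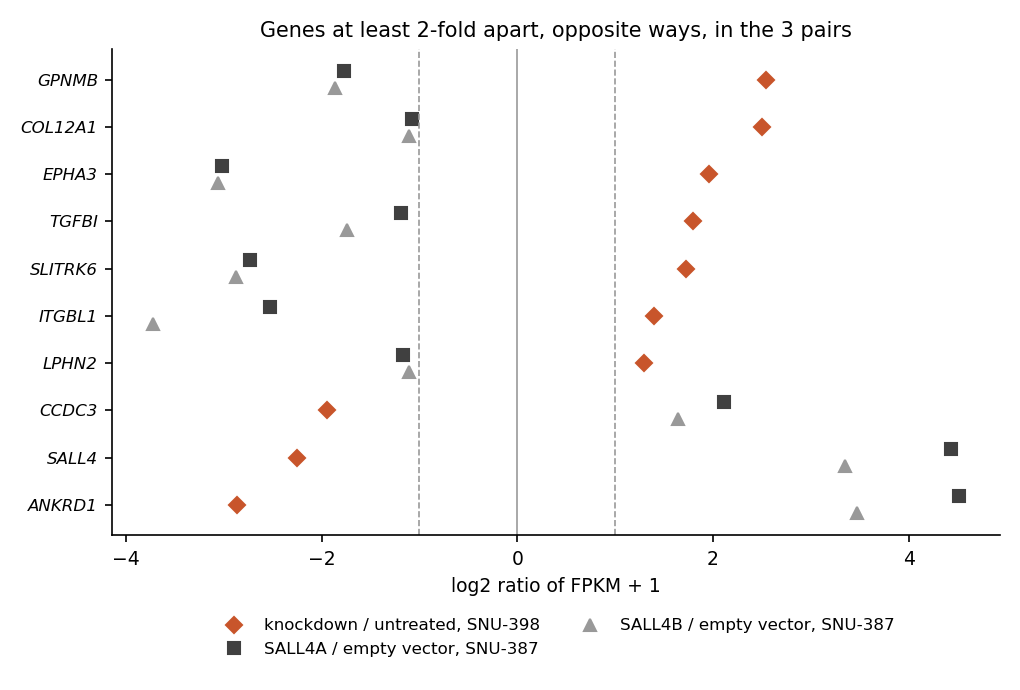
Log2 ratios of FPKM + 1 for 10 genes at least 2-fold apart in all 3 pairs and opposite between knockdown (orange diamonds) and both isoform vectors (squares and triangles), 1 library per group; the dashed lines mark 2-fold. The genes from GPNMB to LPHN2 lie right of 1 for knockdown and left of -1 for both vectors, while CCDC3, SALL4 and ANKRD1 lie the other way.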

How the data were processed

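RNA from 5 libraries, 1 per group, was sequenced after ribosomal RNA depletion, and the 2 SNU-398 libraries are compared here. The deposited values are FPKM per gene, and per the submitters' processing notes the tools were TopHat2, SAMtools, Cufflinks and Cuffdiff, named without versions, with the build GRCh38. Whether the libraries were normalised together, and the annotation, are not stated in the sources used. The members and lists were chosen with earlier results of these data known.

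From 26032 rows, 17 without a symbol were left out and rows that share a symbol were summed (450 symbols). Genes that reached 1 FPKM in either library were kept, and 1 FPKM was added before the log2 ratio. A 2-fold ratio was counted as higher or lower. No sample spread exists, so nothing was tested. Named genes were the SALL genes, the 15 highest and 15 lowest protein-coding genes at 5 FPKM or more with a transcript of 1 kb or more and no snoRNA inside, for each list the 2 genes with the largest ratio in either direction and the 2 with the highest mean FPKM, genes with opposite differences in SNU-387 (at most 8 a direction), the 3 snoRNAs of each class with the highest knockdown FPKM, and the 5 most abundant genes that moved less than 1.1-fold. All other names, the 22 SNU-387 mRNAs with both subtractions, the snoRNA steps and the lists plotted were chosen after values were seen.

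Depth was estimated from the steps of low FPKM values, 7.75 M to 25.0 M fragments over the 5 libraries, with a rule set after the steps were seen. Biotypes, lengths and GC content came from GENCODE 29, matched to 13009 of the genes kept, and promoters from RefSeq (GRCh38.p14). Python 3.11.15, numpy 2.4.6, pandas 2.3.3 and scipy 1.17.1 were used. The ratio and counting steps were tested on simulated data. The alternatives were other pseudocounts, filters, scalings, gene classes and row handling, and the 2 subtractions. A few named genes are not reported here.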

Additional observations from a re-analysis of the deposited data

How the results depend on the processing

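Over 12 alternatives and the 2 subtractions added after seeing the data, the count of higher genes moved most with the pseudocount, to 508 higher and 382 lower with 5 FPKM and to 1997 and 1560 with 0.1 FPKM. Among protein-coding genes of 1 kb or more without snoRNAs inside, 788 were higher. Higher genes were 66.0% of those past 2-fold with the median of abundant protein-coding genes set to 0. The snoRNA share was 0.0205% and 1.26% when weighted by length, which is not a share of fragments for RNAs this short. The SALL4 log2 ratio ranged from -2.39 to -1.83. With the highest SNU-387 percent subtracted, NQO1 changed sign to -1.01, and LDHB, SPARC, KRT8 and TGFBI, then under 1 FPKM, had values of -0.052, -0.12, -0.66 and -0.95. No paired analysis was possible because each group has 1 library. Genes at 1 FPKM in a 2 kb transcript rest on about 14.3 fragments in the knockdown library, which limits low values.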

Other observations

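Several lists not described above had few members past 2-fold, against 9.73% of all genes higher and 8.13% lower. Translation initiation and elongation factors had a median of -0.037 (-0.083 after centring), with 1 of 41 at least 2-fold higher and 1 lower. Core spliceosome and SR proteins had a median of -0.002 (0.12 after centring), with 2 of 39 higher and 1 lower. Double-strand break repair genes had a median of 0.079 (-0.044 after centring), with 0 of 33 higher and 2 lower, and centrosome and cilium genes had a median of 0.091 (-0.053 after centring), with 2 of 42 higher and 1 lower. Heat shock and chaperonin genes had a median of 0.15 (0.21 after centring), with 1 of 22 higher and 0 lower, and hypoxia response genes a median of 0.33 (0.55 after centring) and of 0.20 after the SNU-387 subtraction, with 1 of 19 higher and 1 lower.

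Targets of NF-kB and inflammatory cytokines, most of which these cells did not list at 1 FPKM, had 1 of 13 kept members higher and 0 lower, from a list of 29, with a median of 0.40 (0.40 after centring). Biliary and progenitor markers had 2 of 7 kept members higher and 1 lower, with a median of 0.52 (0.68 after centring) and of 0.31 after subtraction, and metallothioneins had 0 of 5 higher and 0 lower. Of 50 keratin genes 3 were kept and 2 were higher, KRT18 and KRT8, with ratios after the SNU-387 subtraction of 0.95 and 0.998. Among 606 LINC symbols 127 were kept, 25 were higher and 9 lower.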
